A study of Homo sapiens with 12 samples.

Results

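Keratin 80 (KRT80), carboxypeptidase A4 (CPA4) and 5 epithelial keratins (KRT8, KRT18, KRT19, KRT10 and KRT23) were followed through 12 RNA-seq libraries. They were found by their Ensembl identifiers, and they are 7 of the 58051 genes in the count tables. All 7 passed the filter on low counts, which left 27915 genes to be tested. KRT80 and CPA4 were chosen by their measured levels, which differ between the PFDN2 and the PFDN5 knockdown, so that difference is described below without a test.

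HCT116 cells, an established line from a human colon carcinoma, were transfected with short duplexes that direct the cleavage of a matching messenger RNA (small interfering RNAs, siRNAs). There were 3 of these, the control siControl, siPFDN2 and siPFDN5. The proteins PFDN2 and PFDN5 are 2 of the subunits of prefoldin, which hands newly made actin and tubulin to a chaperonin. In all 6 groups the cells were deprived of serum for 48 h, beginning 24 h after transfection. They were collected either before serum was given back or 90 min after it, with 2 libraries (replicates 1 and 2) in each group. The labels do not say whether the replicates were separate cultures, so p-values measure only the spread between these libraries, which may be technical. Before serum the siPFDN5 libraries had less PFDN5 than siControl, 41.0 and 44.2 CPM (counts scaled to library size) against 76.8 and 68.9. The siPFDN5 libraries collected after serum did not. They held 67.5 and 68.6 CPM against 67.9 and 74.0, so they are called the libraries labelled siPFDN5 after serum. PFDN2 was lower under siPFDN2 in both states. It had 7.55 and 8.49 against 11.5 and 11.2 CPM before serum, and 8.73 and 9.47 against 19.5 and 16.3 after it.

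Keratins are the intermediate filament proteins of epithelial cells, and a filament is built from pairs of a type I and a type II chain. KRT8 is the type II partner of the type I keratins KRT18 and KRT19 in simple epithelia such as that of the gut. KRT10 is a type I keratin of the upper epidermis, KRT23 is a further type I keratin, and KRT80 is a type II keratin. CPA4 is not a keratin but a secreted zinc-dependent carboxypeptidase, which removes amino acids from the end of peptides.

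Total counts over gene bodies (introns included) ran from 59784425 to 136504590 per library. The siPFDN2 libraries before serum differed most from each other, with an SD of 0.681 for the log2 difference between the replicates across genes, against 0.116 to 0.301 in the other groups. Among 12 colon epithelial markers, EPCAM (median 95.4 RPKM, exon counts per kilobase and scaled to library size), CLDN4 (60.3) and CLDN7 (49.0) were the most abundant. Of those of intestinal identity and differentiation, VIL1 (2.74) and CDX2 (2.15) were expressed at a lower level, and CDH17 (0.0383), LGALS4 (0.0150) and CDX1 (0) were at or near 0. The fibroblast markers COL1A2, DCN and LUM and the immune markers PTPRC and CD3E had medians of at most 0.00306, while CD68 had 1.81 and COL1A1 0.883.

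The siRNA sequences are shown because KRT80 shares part of one of them. The strand given in the labels, which matches the target's messenger RNA, is printed for each. Capitals mark bases 12 to 18, which pair with bases 2 to 8 (the seed) of the guide strand.
siControl: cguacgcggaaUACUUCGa
siPFDN2: cagccuagugaUCGAUACa
siPFDN5: agagaagacagCUGAGGAu

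KRT80 messenger RNA holds 14 unbroken bases of siPFDN5, bases 5 to 18, and these take in the whole seed match. The site is in exon 7 of both coding KRT80 transcripts, in the coding sequence, at chr12:52172380-52172398 on the minus strand (GRCh38, GENCODE release 29). Capitals mark the shared bases of the site.
KRT80 site: catcAAGACAGCTGAGGAg
The longest stretch that KRT80 shares with siPFDN2 was 7 bases, and with siControl 6. Of 19684 coding genes, 6 hold at least 14 unbroken bases of siPFDN5 in their longest coding transcript, PFDN5 itself with all 19 among them. The others besides KRT80 are PRPF8 (15 bases), MLXIPL, PLEKHA3 and NUF2 (14 each), named here after their values had been seen. Before serum the fitted log2 differences of siPFDN5 from siControl were -1.63 for KRT80, -0.41 for PRPF8, -0.36 for MLXIPL, 0.04 for PLEKHA3 and 0.11 for NUF2. In the libraries labelled siPFDN5 after serum they were -0.93, -0.93, -1.08, -0.24 and 0.13 in the same order. KRT80 was thus the lowest of these before serum but not after it. PFDN5 itself differed by -0.77 before serum and by -0.06 in the libraries labelled as after it. The part of this shared stretch in the KRT80 level was not tested. The 7-base seed match alone is in 41.7% of coding genes, KRT80 and KRT8 among them. The tested genes with it had a median log2 difference of -0.02 under siPFDN5 before serum, against -0.01 for all coding genes. The medians were -0.06 and 0.001 in the libraries labelled siPFDN5 after serum. Below siControl were 52.6% of the genes with it and 51.8% of all coding genes under siPFDN5 before serum. In the libraries labelled siPFDN5 after serum the shares were 57.5% and 49.8%. Under siPFDN2, whose seed differs, they were 47.1% and 50.7% before serum and 59.8% and 53.9% after it. The part of the seed match in these values was not tested. CPA4 shares at most 7 bases with siPFDN5 and holds no seed match of the 3 siRNAs. KRT10 is the only one of the 7 genes with the siPFDN2 seed match, found in 2.55% of coding genes. Of the tested genes with that match, 67.5% were below siControl under siPFDN2 before serum and 72.6% after it. The shares of all coding genes were 50.7% and 53.9%. KRT10 itself differed by -0.09 before serum and 0.22 after it. The part of this match in its level was not tested.

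The 7 genes span more than 2 orders of magnitude in level per exon length. KRT19 had a median of 297 RPKM over the 12 libraries (range 273 to 424), KRT18 181 (155 to 252) and KRT8 154 (122 to 200). These simple epithelial keratins together made up 94.3% to 97.0% of the summed RPKM of all 55 keratin genes in each library. KRT8 RPKM was 0.748 to 0.959 times KRT18 RPKM in the same library, and 0.280 to 0.342 times the sum of its partners KRT18 and KRT19. These ratios depend on the length used, which is that of all annotated exons: 6881 bases for KRT8, 3218 for KRT18 and 2336 for KRT19. Their main transcripts are shorter, KRT8-201 with 1882 bases, KRT18-201 with 1562 and KRT19-201 with 1390. So the order of these 3 genes is not settled by RPKM. KRT23 followed with 10.9 RPKM (6.85 to 16.0) and KRT10 with 4.41 (1.98 to 6.36). CPA4 had a median of 2.89 RPKM (1.71 to 8.14) and KRT80 of 2.82 (0.323 to 6.97). KRT80 varied the most, with a highest gene-body CPM 25.9 times its lowest, against 5.34 times for CPA4 and 1.58 to 3.64 times for the other 5.

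**Figure D1:**
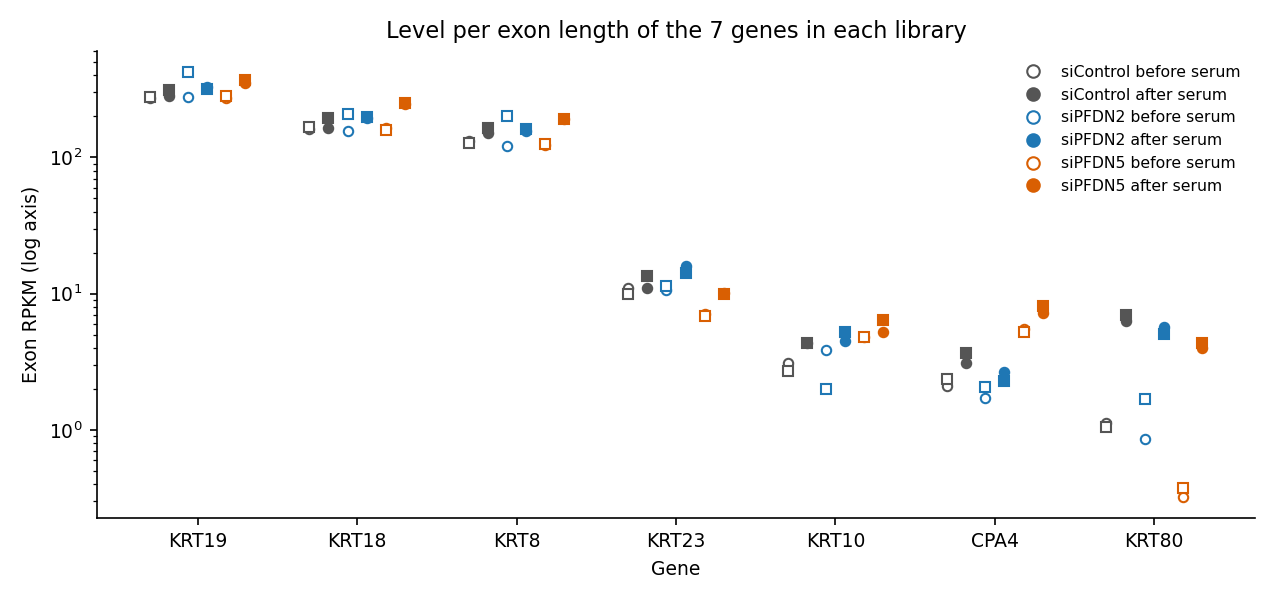
Exon RPKM (log axis) of the 7 genes in each of the 12 libraries, ordered by median, with colour for the siRNA, open symbols before serum, filled symbols after it, circles for replicate 1 and squares for replicate 2. KRT19, KRT18 and KRT8 lie above 100 RPKM in every library, and KRT80 runs from 0.323 to 6.97.

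KRT80 rose after serum in siControl. It had 4.59 and 4.49 CPM before serum and 34.7 and 34.6 after it, so the groups are far apart. Both libraries being above both others is shared by 23.3% of all genes. The mean rose 7.64-fold, from 4.54 ± 0.0718 to 34.7 ± 0.0227 CPM (SD, n = 2 each). On the log2 scale this was 2.93 (SE 0.25) in edgeR's quasi-likelihood test (adjusted p = 6.92e-05). In RNA from a whole culture, fewer cells that express a gene and less of its RNA per cell cannot be told apart.

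CPA4 also rose after serum in siControl, by less. Its libraries held 7.15 and 8.01 CPM before serum and 15.4 and 16.6 after it, without overlap. The mean went from 7.58 ± 0.606 to 16.0 ± 0.889 CPM (SD, n = 2 each), a log2 fold change of 1.08 (SE 0.17) with an edgeR adjusted p of 0.00555. This call rested on introns: with exon counts the log2 fold change was 0.61 (edgeR adjusted p = 0.104) and with summed transcript estimates 0.55 (edgeR adjusted p = 0.144). It was also lost without siControl before-serum replicate 1 (adjusted p = 0.114) or replicate 2 (adjusted p = 0.0581). KRT80 was called in all of these.

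None of the other 5 keratins passed the test in siControl, and none had an unadjusted p under 0.05 in edgeR or a call in DESeq2. So 2 of the 7 genes were called higher, where 2.47% of all genes were. KRT8 had 747 and 725 CPM before serum and 827 and 950 after it, a log2 difference of 0.27 (edgeR adjusted p = 0.667). KRT18 had 425 and 442 against 409 and 514 CPM, and KRT19 522 and 526 against 518 and 603 CPM, and in both the groups overlap. KRT10 went from 6.88 and 5.92 to 8.37 and 8.99 CPM, a log2 difference of 0.44 (edgeR adjusted p = 0.640). KRT23 had 27.5 and 24.3 CPM before serum and 28.8 and 35.3 after it, a log2 difference of 0.31 (edgeR adjusted p = 0.452).

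Averaged over the 3 siRNAs with equal weight, 2 of the 5 other keratins rose after serum, where 7.6% of all genes were called higher. KRT23 rose on the log2 scale by 0.51 (SE 0.09, edgeR adjusted p = 0.00307). KRT18 rose by 0.32 (SE 0.09, edgeR adjusted p = 0.0390), but this call was lost with exon counts, with upper-quartile scaling, with library size only, and without any 1 of 9 of the 12 libraries, with adjusted p up to 0.204. Those 9 are every siPFDN5 library, both siPFDN2 libraries after serum, both siControl libraries before serum and siControl after-serum replicate 2. KRT10 (0.54, edgeR adjusted p = 0.0528), KRT8 (0.34, edgeR adjusted p = 0.0574) and KRT19 (0.17, edgeR adjusted p = 0.250) did not pass. For KRT80 and CPA4 the average was 2.95 (SE 0.15) and 0.87 (SE 0.10), given without a test because siPFDN2 and siPFDN5 libraries chose them.

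**Figure D2:**
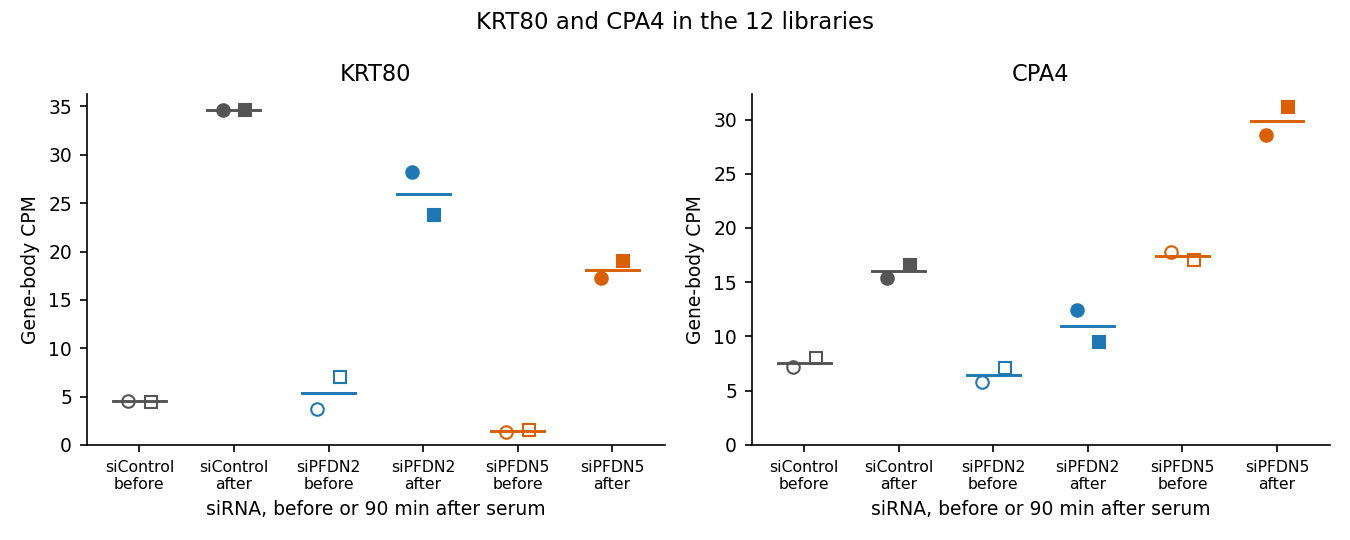
Gene-body CPM of KRT80 (left) and CPA4 (right) in each library, by siRNA and by collection before serum (open) or 90 min after it (filled), with circles for replicate 1, squares for replicate 2 and a line at the group mean. Both genes are higher after serum under every siRNA, and siPFDN5 libraries are the lowest for KRT80 and the highest for CPA4 in each state.

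Under siPFDN2, KRT80 had 3.75 and 6.99 CPM before serum and 28.2 and 23.8 after it, a log2 difference of 2.27. Under siPFDN5 it had 1.34 and 1.58 CPM before serum and 17.3 and 18.98 after it, a log2 difference of 3.63. These siPFDN5 values before serum rest on 84 and 107 counts. CPA4 had 5.83 and 7.10 CPM before serum and 12.4 and 9.47 after it under siPFDN2, a log2 difference of 0.76. Under siPFDN5 it had 17.8 and 17.1 CPM before serum and 28.6 and 31.1 after it, a log2 difference of 0.78. Within each siRNA the groups before and after serum do not overlap for either gene, an order that 26.2% of all genes have under siPFDN2 and 36.8% under siPFDN5. The serum response in siPFDN2 minus that in siControl was -0.66 for KRT80 and -0.32 for CPA4. The same difference for siPFDN5 was 0.70 and -0.30. Since siPFDN2 and siPFDN5 libraries entered the choice of these genes, these values carry no test.

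The 5 other keratins were tested under siPFDN2 and under siPFDN5. Under siPFDN2 none was called by edgeR after serum against before it, where 3.26% of all genes were. There 2 had an unadjusted p under 0.05, KRT10 and KRT23, and DESeq2 called 1 of the 5. Of them KRT23 had the lowest edgeR adjusted p, 0.0707, with 26.9 and 27.2 CPM before serum and 42.3 and 37.0 after it. Under siPFDN5, KRT8, KRT18 and KRT23 were higher in the libraries labelled as after serum, 3 of 5 where 5.72% of all genes were called higher. KRT18 had 417 and 407 CPM before serum and 692 and 698 after it, a log2 fold change of 0.75 (SE 0.16, edgeR adjusted p = 0.0187). KRT8 had 673 and 687 CPM against 1138.1 and 1138.7, a log2 fold change of 0.74 (SE 0.19, edgeR adjusted p = 0.0321). KRT23 had 17.1 and 16.9 CPM against 27.5 and 26.3, a log2 fold change of 0.66 (SE 0.15, edgeR adjusted p = 0.0226). In each of the 3 the groups are separate and the replicates close. All 3 calls were lost with exon counts (edgeR adjusted p = 0.0943 for KRT8, 0.0506 for KRT18 and 0.0637 for KRT23) and without any 1 of the 4 siPFDN5 libraries (0.111 to 0.207). KRT8 was also lost without either siControl library before serum or either siPFDN2 library after it (0.0540 to 0.0578), with library size only (0.0724) and with transcript estimates (0.0630), and KRT23 with library size only (0.0533). KRT19 had 501 and 525 CPM before serum and 718 and 747 after it and did not pass (edgeR adjusted p = 0.0765). The serum response of KRT18 in siPFDN5 exceeded that in siControl by 0.66, which did not pass the test of the difference (edgeR adjusted p = 0.134). No gene of all those tested passed it in edgeR (0%), although 5847 had an unadjusted p under 0.05 and DESeq2 called 1764. For siPFDN2 the same test gave 0 calls in edgeR, 1841 genes at an unadjusted p under 0.05 and 2 calls in DESeq2.

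KRT80 was lower in siPFDN5 libraries than in all others taken in the same state. Before serum its 1.34 and 1.58 CPM compare with 4.59 and 4.49 in siControl and 3.75 and 6.99 in siPFDN2. The log2 difference was -1.63 (SE 0.26) from siControl and -1.88 (SE 0.26) from siPFDN2, and 0.0788% of all genes were called in the latter comparison. The libraries labelled siPFDN5 after serum, with 17.3 and 18.98 CPM, differed by -0.93 (SE 0.24) from siControl and by -0.52 (SE 0.24) from siPFDN2, with 0.0179% of all genes called in the latter. Libraries below both of siControl, like these, are found for 30.5% of all genes before serum and 32.7% after it. Those below all siControl and siPFDN2 libraries in both states are found for 3.39% of all genes. From low to high mean the groups were siPFDN5, siControl and siPFDN2 before serum, then siPFDN5, siPFDN2 and siControl after it. The siControl and siPFDN2 libraries before serum overlap, and no other neighbours do. How many of all genes have groups as separate as these was not counted.

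CPA4 was higher in siPFDN5 libraries than in all others taken in the same state. Before serum it had 17.8 and 17.1 CPM under siPFDN5, against 7.15 and 8.01 in siControl and 5.83 and 7.10 in siPFDN2. The log2 difference was 1.20 (SE 0.17) from siControl and 1.43 (SE 0.18) from siPFDN2. In the libraries labelled siPFDN5 after serum it had 28.6 and 31.1 CPM, which differed by 0.90 (SE 0.17) from siControl and by 1.45 (SE 0.17) from siPFDN2. Of all genes 32.9% lie above siControl in this way before serum and 30.6% after it. Above all siControl and siPFDN2 libraries in both states lie 3.71%. By mean the groups ran siPFDN2 and siControl before serum, siPFDN2 and siControl after serum, then siPFDN5 before and after serum. No neighbours overlap, but the siPFDN2 and siControl libraries before serum are only as far apart as 7.10 and 7.15 CPM. How many of all genes have 6 separate groups was not counted. The siControl libraries after serum, at 15.4 and 16.6 CPM, stayed below the siPFDN5 libraries before serum.

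The siPFDN2 values of both genes lay closer to siControl. KRT80 differed by 0.25 (SE 0.24) before serum and -0.42 (SE 0.24) after it, and the first of these changed sign without siPFDN2 replicate 2 (-0.27). CPA4 differed by -0.23 (SE 0.17) before serum and -0.55 (SE 0.17) after it. After serum both siPFDN2 libraries were below both siControl libraries for both genes, as they were for 25.5% of all genes.

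The 5 other keratins were also set against siControl under each knockdown in each state, and none of these 20 tests passed in edgeR. Of the 20, 3 had an unadjusted p under 0.05 and 2 were called by DESeq2. In edgeR 0% of all genes were called with siPFDN2 in either state, 0.00716% with siPFDN5 before serum and 0.00358% after it. The siPFDN2 comparisons had 3156 genes before serum and 1747 after it at an unadjusted p under 0.05, and DESeq2 called 27 and 2. KRT23 was the lowest relative to siControl under siPFDN5 before serum, with 17.1 and 16.9 CPM against 27.5 and 24.3, a log2 difference of -0.61 (unadjusted p = 0.00197, adjusted p = 0.213 in edgeR). DESeq2 gave it an adjusted p of 0.0350. KRT18 in the libraries labelled siPFDN5 after serum stood at 692 and 698 CPM against 409 and 514 in siControl, a log2 difference of 0.59 (edgeR adjusted p = 0.0902, DESeq2 0.0197). KRT19 (0.39, edgeR adjusted p = 0.228) and KRT8 (0.36, edgeR adjusted p = 0.297) lay in the same direction there. KRT10 was higher under siPFDN5 than under the other siRNAs in both states, with 9.14 and 9.24 CPM before serum and 11.5 and 13.4 after it. Of siControl and siPFDN2 libraries the highest were 8.35 before serum and 10.7 after it. All genes that lie above the other siRNAs like this in both states make up 3.71% of those tested, and those below 3.39%, where KRT23 belongs. CPA4 also lies above in this way, and KRT80 below. The number of calls moved most with the replicates of siPFDN2 before serum. Without replicate 1 of that group 9 of the 20 tests passed, and 3 of these compare the single library left in it, which is then assumed to vary like the other groups. Without replicate 2, 6 passed, all of them in siPFDN5. It was 4 with only the groups compared in the fit, 3 with the GC trend removed and 1 without siControl after-serum replicate 2.

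**Figure D3:**
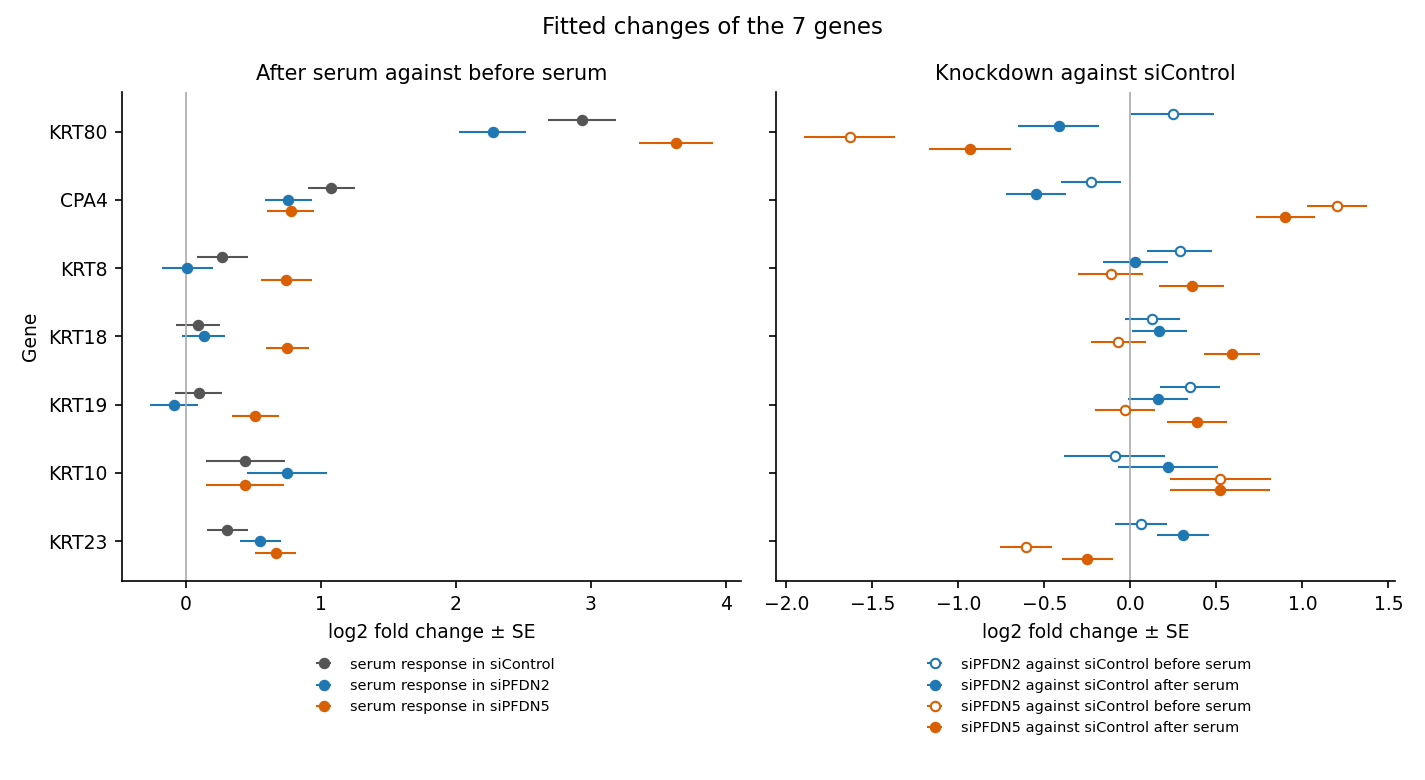
Fitted log2 fold change (bars, SE of the fit) of the 7 genes after serum against before it under each siRNA (left) and in siPFDN2 and siPFDN5 against siControl (right), with open symbols before serum and filled symbols after it. In the right panel KRT80 and CPA4 lie on opposite sides of 0 in siPFDN5, at -1.63 and 1.20 before serum. The other 5 stay within 0.61 of 0 in that panel.

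Counts outside annotated exons can come from RNA that still holds introns. Fragments of other origin in the gene body, such as unannotated exons or the opposite strand, are counted in the same way. The intronic share of a gene is its gene-body count minus its exon count, as a percent of the first. No other annotated gene overlaps KRT80 or CPA4, so their shares hold no counts of such a gene. They are built from the same count tables and libraries that chose both genes, so they are described without a test. CPA4 had 6.33% and 5.61% before serum in siControl and 38.1% and 28.9% after it. Under siPFDN2 it had 4.72% and 8.13% before serum and 30.8% and 21.5% after it, and under siPFDN5 4.20% and 3.73% before and 14.3% and 11.1% after. All 6 libraries after serum thus lie above all 6 before it, a mean of 24.1% against 5.45%. The difference was 18.7 percentage points. Of 2914 genes with introns, no overlapping gene and a mean log2 CPM of at least 3, 0.686% had such a separation upward and 6.93% downward. CPA4 intronic CPM in siControl was 0.452 and 0.450 before serum and 5.85 and 4.80 after it, 11.8 times as much. Its exonic CPM went from 6.70 and 7.56 to 9.52 and 11.8, a ratio of 1.497.

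KRT80 had an intronic share of 14.1% and 17.7% before serum in siControl and 38.7% and 28.4% after it. Under siPFDN2 it had 18.9% and 16.4% before serum and 28.6% and 23.6% after it. Under siPFDN5 the order was the other way, with 17.9% and 18.7% before serum and 14.2% and 14.1% in the libraries labelled as after it. Over all siRNAs the difference was 7.32 percentage points, and 9.40 or 9.42 without replicate 1 or 2 labelled siPFDN5 after serum. In siControl KRT80 intronic CPM was 0.646 and 0.796 before serum and 13.4 and 9.83 after it, a ratio of 16.1. Its exonic CPM was 3.94 and 3.69 against 21.3 and 24.8, a ratio of 6.04.

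Shares were low over the whole transcriptome in the libraries labelled siPFDN5 after serum. Their median share over the 2914 genes was 3.41% and 3.43%, against 7.29% and 6.56% in siPFDN5 before serum and 4.71% to 8.01% in the other libraries. Between those 2 siPFDN5 groups 87.8% of the genes were lower after serum in both libraries and 1.99% higher, and CPA4 is one of the latter. KRT80 is one of the 4.8% with a higher share after serum in siControl and siPFDN2 and a lower one in siPFDN5. In the libraries labelled siPFDN5 after serum, KRT80 had 0.221 times the intronic CPM of siControl and 0.676 times its exonic CPM. CPA4 had 0.708 times the intronic and 2.44 times the exonic CPM. The higher CPA4 level there thus lay in exons. The part of the lower shares in the gene-body values was not tested.

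**Figure D4:**
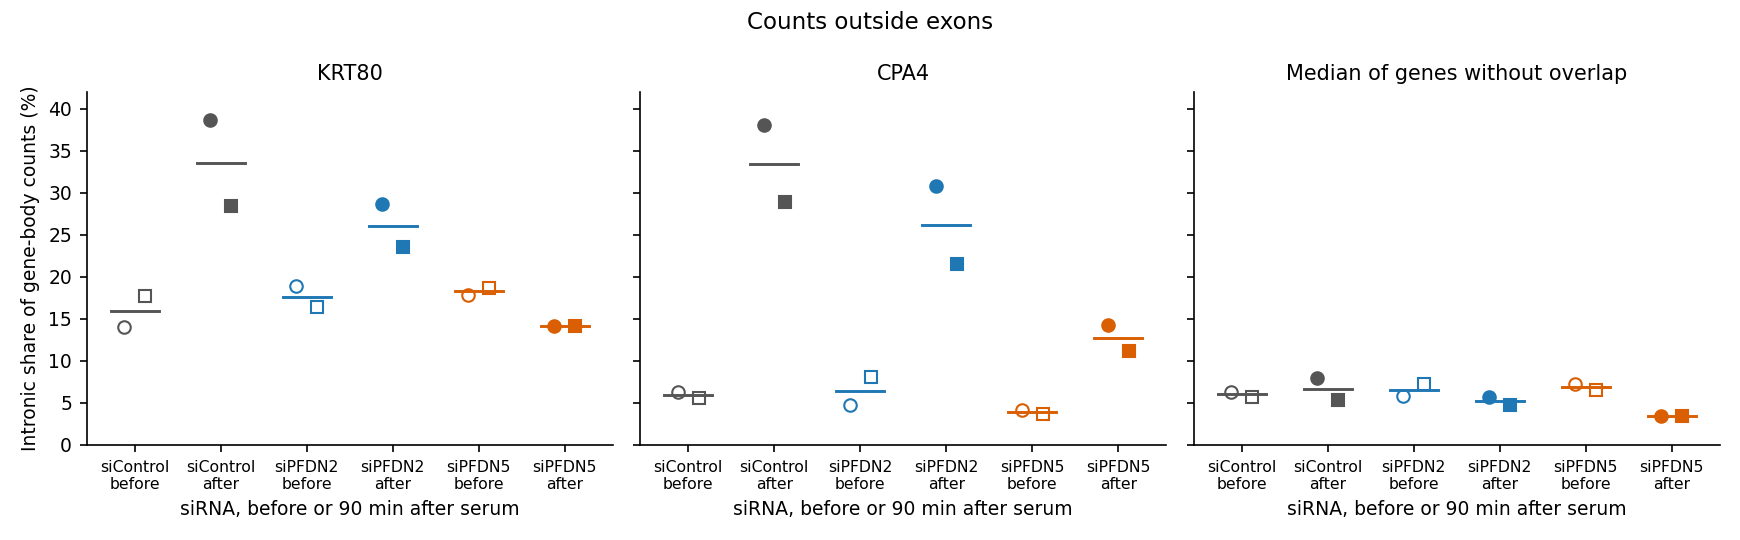
Intronic share of gene-body counts (percent) in each library for KRT80, CPA4 and the median of 2914 genes without overlap, by siRNA and by collection before serum (open) or after it (filled), with circles for replicate 1, squares for replicate 2 and a line at the group mean. CPA4 is higher after serum under each siRNA, KRT80 in siControl and siPFDN2, and the genes' median is lowest in the libraries labelled siPFDN5 after serum (3.41% and 3.43%).

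The abundant keratins had few counts in introns. Their shares before and after serum were compared over 6 libraries each by two-sided exact permutation, where the smallest p of 924 splits is 0.00216. The splits took no account of the siRNA, so libraries of different siRNAs were treated as replicates. The p-values are unadjusted, because the adjustment made over the 7 genes took in KRT80 and CPA4, which are described without a test. KRT19, which no gene overlaps, had a mean share of 0.433% before serum and 0.813% after it (exact permutation p = 0.00866). KRT8 and KRT18 overlap each other head to head, so a fragment there was counted for both. KRT18 had 0.214% and 0.422% (exact permutation p = 0.00216) and KRT8 0.883% and 1.43% (exact permutation p = 0.0195). KRT23, which AC004231.1 overlaps, had 4.99% and 9.26% (exact permutation p = 0.00649). These differences lay in siControl and siPFDN2 for KRT19, KRT8 and KRT23. Under siPFDN5 the mean shares before and after serum were 0.525% and 0.524% for KRT19, 1.01% and 0.949% for KRT8 and 6.68% and 6.74% for KRT23, while KRT18 had 0.241% and 0.336%. KRT10 overlaps TMEM99 and had 15.5% and 15.0% (exact permutation p = 0.829).

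Most of the signal came from 1 or 2 annotated transcripts per gene, by the deposited transcript estimates. KRT80-202 carried a median of 55.8% of the KRT80 estimate (range 38.9% to 76.2%) and KRT80-201 34.5%, both coding. The remainder fell on KRT80-203, which retains an intron, with 7.28% (2.29% to 19.8%). CPA4-201 carried 85.4% of CPA4, KRT8-201 87.8% of KRT8, KRT19-201 99.4% of KRT19 and KRT10-201 100% of KRT10. KRT18 was split between KRT18-201 (62.1%) and KRT18-202 (37.2%), and KRT23 between KRT23-201 (71.5%) and KRT23-202 (19.98%). KRT8 and KRT18 have many processed pseudogenes with near-identical sequence, 50 and 67 by name. Counts assigned to them came to 6.22% to 8.36% of KRT8 counts and 4.22% to 5.39% of KRT18 counts. Fragments that matched a parent and a pseudogene equally well were not counted for either, and their number is not known here.

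The whole keratin family was read in the same way. Of 55 keratin genes 28 were tested, and after serum in siControl 4 were higher, where 2.47% of all genes were, and none lower: KRT80, KRT7, KRT86 and KRT34. The median log2 change of the 28 was 0.65, against 0.01 over all genes. Under siPFDN2 5 were higher and none lower, where 3.26% of all genes were called in either direction. Under siPFDN5 9 were higher, where 5.72% of all genes were, and 1 lower, the hair keratin KRT36 (-1.58). Of all genes 3407 were called there in either direction, 1598 of them higher. The 9 keratins include KRT8, KRT18 and KRT23, whose calls were lost with exon counts or without any 1 siPFDN5 library. They also include KRT16, with 17 and 1100 gene-body counts in the libraries labelled siPFDN5 after serum, and KRT81, with at most 0.179 RPKM. Averaged over the siRNAs 12 were higher, where 7.6% of all genes were, and none lower, with a median of 0.53 against -0.03. KRT80 is among the genes called higher under siPFDN2, under siPFDN5 and on average. Since siPFDN2 and siPFDN5 libraries chose it, its place in these counts is not a test. KRT7, a type II keratin of simple epithelia, is the nearest tested coding gene above KRT80, 40520 bases away. It had 1.18 and 1.61 CPM before serum in siControl and 5.34 and 6.95 after it (log2 fold change 2.13, edgeR adjusted p = 0.000490), while ATG101 on the other side, 91502 bases away, was not called (0.52, edgeR adjusted p = 0.258). KRT86 and KRT34, both hair keratins, stayed under 0.5 RPKM in every library.

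Of 22 genes for proteins that anchor or cross-link keratin filaments 20 were tested. None was called after serum in siControl by edgeR or DESeq2, 0 had an unadjusted p under 0.05, and the median log2 change was 0.08. Averaged over the siRNAs 2 were higher, where 7.6% of all genes were, and 1 lower. Of all 27915 genes 4163 were called on average in either direction, 2122 of them higher. Of 15 basal and squamous epithelial genes 12 were tested, and 2 were higher in siControl, again against 2.47% of all genes, LAMB3 (1.18), a laminin chain, and S100A2 (0.77), a calcium-binding protein. Of 18 metallocarboxypeptidases and their inhibitor 14 were tested, and 2 were higher in siControl, where 2.47% of all genes were, CPA4 and CPA5. Under siPFDN5 3 were higher, where 5.72% of all genes were, and 3 lower. The list holds CPA4, for which siPFDN5 values are not a test. CPA5 lies 20636 bases from CPA4 and had 0.0969 and 0.103 CPM before serum and 0.549 and 0.631 after it (log2 fold change 2.55, edgeR adjusted p = 0.00475). These are gene-body values near the floor, since CPA5 had only 65 exon counts over all 12 libraries (median 0.0212 RPKM). The CPA4 call, as given above, was lost with exon counts. TMEM209, the tested coding gene on the other side of CPA4, did not pass (0.16, edgeR adjusted p = 0.900). Of 14 regulators of epithelial and early-response genes 13 were tested. In siControl 7 were higher, where 2.47% of all genes were, and none lower. Averaged over the siRNAs 8 were higher, where 7.6% of all genes were, and 2 lower, GRHL2 (-0.44) and CDX2 (-0.47), transcription factors of epithelia. The largest changes in siControl were those of FOS (2.995), FOSL1 (2.84) and JUN (2.68), subunits of the AP-1 factor, and of KLF4 (2.53), a zinc-finger factor of epithelia.

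The sequence just before CPA4 is shown because it holds the letters of the AP-1 motif, and AP-1 subunits were among the genes that rose after serum. Promoters of 250 bases from RefSeq (GRCh38.p14) were used for 3 of the 7 genes, CPA4, KRT8 and KRT10, and those of the other 4 were not analysed here. Both strands were searched for the AP-1 motif TGANTCA and the TEAD motif GGAATG, which do not overlap in CPA4. CPA4 holds TGAGTCA at -48, TGACTCA at -15 and GGAATG at -134 relative to the RefSeq start, and KRT8 and KRT10 hold 0 matches. The KRT8 promoter, chr12:52926470-52926719, lies inside the counted KRT8 gene, which spans 52897187 to 52949954. Whether KRT8 starts there in these cells was not tested. TGANTCA is in 6.57% of the 35116 promoters of this length, and GGAATG in 11.9%. The 223 bases before the CPA4 gene body of the count tables, chr7:130292911-130293133 on the plus strand, are printed with the motifs in capitals, which leaves out the match at -15.
CPA4 upstream: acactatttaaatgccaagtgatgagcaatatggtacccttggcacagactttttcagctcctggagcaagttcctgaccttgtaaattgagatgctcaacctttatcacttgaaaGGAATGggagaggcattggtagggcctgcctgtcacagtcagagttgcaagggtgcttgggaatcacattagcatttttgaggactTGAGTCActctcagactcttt
A match of letters does not show that a factor binds there.

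Genes with the most similar pattern over the 12 libraries were sought among 10472 coding genes, by the root mean square difference of log2 CPM after centring each gene. For KRT80 they were TUFT1 (0.60), CSRNP1 (0.62), JUN (0.63), DUSP1 (0.64) and KLF6 (0.64), where the SD of KRT80 itself was 1.69. JUN had 9.44 and 11.8 CPM before serum and 68.9 and 67.6 after it in siControl, and 9.76 and 10.4 before serum under siPFDN5. So JUN shared the difference with serum but had no lower level under siPFDN5 before it. For CPA4 they were PFDN2 (0.33), GDF15 (0.37), SHC4 (0.41), MT2A (0.42) and EID1 (0.42), where the SD of CPA4 was 0.79. SHC4 and EID1 overlap, so fragments there were counted for both, and their CPM were close in every library (64.2 and 63.2 in siControl before-serum replicate 1). PFDN2, the target of siPFDN2, had 7.55 and 8.49 CPM in siPFDN2, 11.5 and 11.2 in siControl and 21.8 and 21.1 in siPFDN5, all before serum. With exon counts TP53I3, CST6 and FAS took the place of GDF15, SHC4 and MT2A. Both rankings use the siPFDN2 and siPFDN5 libraries that chose KRT80 and CPA4, and PFDN2 itself is lower under siPFDN2. The rankings are thus descriptions, and shared control of these genes was not tested.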

How the data were processed

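RNA-seq counts of 12 HCT116 libraries (6 groups of 2, read from the sample titles) were analysed. The 7 genes and the gene lists were chosen with earlier results of these data known. Named genes are the 7 genes, list members among the 3 most abundant or the 4 with the largest called change per direction, the 5 most similar genes of KRT80 and CPA4 and their tested neighbours.

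The authors deposited fragment counts per gene over gene bodies and over exons. Per the file headers these came from featureCounts 1.5.2 on Ensembl release 87 of GRCh38, with no strand option, fragments in overlapping genes assigned to all of them, and multi-mapped fragments not counted. HISAT2 is named in the submitters' processing notes. The deposited files per sample are named for TPM but hold estimated counts per transcript, and kallisto 0.43 is named in the submitters' processing notes. They were summed per gene and rounded. Gene lengths for RPKM are those of the deposited exon table. The tables hold 6 further columns that match no sample label, not used here.

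Gene-body counts were fitted with edgeR 4.0.16 (R 4.3.3): filterByExpr, TMM scaling, 1 model of the 6 group means over all 12 libraries and robust quasi-likelihood tests. In 12 comparisons p-values were adjusted by Benjamini-Hochberg over 27915 genes and called under 0.05, two-sided. CPM are per TMM-scaled gene-body total, and log2 CPM used a prior count of 2. The script was tested on simulated data. Intronic shares of the 5 other keratins were compared by exact permutation over libraries, without regard to the siRNA, and their p-values are given unadjusted. Annotation, transcripts and positions were from GENCODE release 29, in which 57447 of 58051 genes matched. Alternatives were 2 other scalings, 2 other filters, exon and transcript counts, a GC correction (lowess, span 0.3, 3 iterations), a replicate block, only the groups compared, DESeq2 1.42.0, pseudogenes added to KRT8 and KRT18, and each library left out.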

Additional observations from a re-analysis of the deposited data

Results flagged for a closer look

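The KRT80 intronic share changed by -4.12 percentage points after serum under siPFDN5 and by 17.6 in siControl, with both libraries moving the same way in each. The difference between the siRNAs was not tested. The KRT10 share changed by 2.19 points under siPFDN5 and by -6.54 in siControl, also untested, and TMEM99 overlaps KRT10.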

How the results depend on the processing

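KRT80 kept its call in siControl under 23 alternatives (log2 2.62 to 2.96). CPA4 in siControl lost its call with exon counts (0.61) and transcript estimates (0.55), and ranged from 0.96 to 1.16 with a library left out. So 1 of the 7 genes was called in siControl with exon counts or transcript estimates, and 1 to 3 with a library left out. KRT80 in siPFDN5 against siPFDN2 before serum was -1.54 with the GC trend removed and -1.54 with a replicate block and the GC trend removed, and -2.25 to -1.36 with a library left out. CPA4 in the same comparison after serum was 1.63 with exon counts, 1.61 with transcript estimates and 1.27 to 1.66 with a library left out. The 20 knockdown tests of the other keratins gave 1 call without a filter on low counts, 3 with the GC trend removed, 1 with the block and GC together, 4 with only the groups compared, 2 with DESeq2 and 0 to 9 with a library left out. KRT80 in siPFDN2 against siControl before serum turned to -0.021 with the GC trend removed, -0.026 with block and GC, and -0.27 without siPFDN2 before-serum replicate 2. Without siControl after-serum replicate 2 the serum response in siControl was -0.15 for KRT18 and -0.083 for KRT19, and with other libraries left out it reached 0.25 and 0.20. The KRT10 share difference turned to 0.82 and 0.36 without siControl before-serum replicate 1 or 2, and 0.10 without siPFDN2 before-serum replicate 1, and ran down to -2.03 with others left out. The cause was not tested.

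The correlation of replicate deviations between groups had a median of -0.05 over 15 pairs of groups (-0.32 to 0.59), and 4 pairs were over 0.1. Replicate numbers thus showed no pairing common to all groups, and pairing of single groups was not tested. With the replicate block alone the siControl response was 2.93 for KRT80 and 1.08 for CPA4. Counts over all genes varied widely: 800 in siControl (275 to 2889 over the alternatives), 910 in siPFDN2 (37 to 14264), 3407 in siPFDN5 (251 to 13741), 4163 on average (1668 to 13863), 2 and 1 for siPFDN5 against siControl before and after serum (0 to 5014, 0 to 6936), 22 and 5 for siPFDN5 against siPFDN2 (0 to 14051, 0 to 5661), and 0 for siPFDN2 against siControl in both states (up to 12252 and 256). The 0 calls for the difference of serum responses from siControl went up to 11061 for siPFDN2 and 6329 for siPFDN5. Library size only moved the median of all genes from -0.02 to -0.23 in the siPFDN2 serum response and from -0.03 to -0.18 in that of siPFDN5. Depth limits KRT80 in siPFDN5 before serum, at 84 and 107 counts.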

Other observations

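KRT14 and KRT16 were uneven between replicates, and were singled out once these counts were known, while KRT15, another keratin of stratified epithelium, kept to 1.61 to 2.34 RPKM over the 12 libraries. KRT14, a type I keratin of basal cells, had 992 and 481 exon counts in siControl before serum but 7 and 768 after it. Under siPFDN2 it had 1053 and 159 before serum and 1 and 7 after it, and under siPFDN5 69 and 278 before serum and 6 and 1321 in the libraries labelled as after it. Its gene-body counts exceeded its exon counts by at most 2 in any library, so these counts lay in exons. KRT16, a type I keratin of hair follicles and stressed epidermis, had 1099 exon counts in replicate 2 labelled siPFDN5 after serum and 3 to 35 in the other 11. Its fitted serum response in siPFDN5, 6.55 on the log2 scale (edgeR adjusted p = 0.0208), had 17 gene-body counts in one library and 1100 in the other.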
